A study of Mus musculus with 6 samples.

Results

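The S100 and annexin genes were followed through an array comparison of epididymal white adipose tissue from mice whose adipocytes lack CNOT3. Members were all genes that a probe set names alone with a symbol starting in S100 or in Anxa and a digit, which gave 26 genes of the 18193 represented on the array. They comprised 14 S100 genes, 11 annexin genes and S100pbp, which encodes a binding protein of an S100 protein and is no S100 protein itself. S100a11 and Anxa11 were measured only by 2 probe sets that name several genes each, so no value of theirs is given. Where a gene had several probe sets, the brightest on average over the 6 arrays represented it. Of the 26 members, 18 passed the filter on dim genes (8 S100 genes, 9 annexins and S100pbp) and were tested.

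The tissue came from 3 wild-type mice (WT) and 3 mice with a Cnot3 deletion in adipose tissue (CNOT3KO), all C57BL/6 and 8 weeks old, with 1 array per mouse. The deletion was made with a Cre recombinase under the Adiponectin promoter, an adipocyte promoter, so the other cells of the fat pad were not its target. Whether the control mice carried floxed alleles or the Cre is not given in the sources used here. CNOT3 is a core subunit of CCR4-NOT, the deadenylase that trims poly(A) tails and so begins mRNA decay. The groups differ in whether adipocytes have it. Cnot3 itself read 305, 293 and 305 in WT and 194, 229 and 179 in CNOT3KO (log2 difference -0.54, SE 0.14, limma adjusted p = 0.0131), and where its probes lie relative to the deleted part is not analysed here. Adipoq, the gene for adiponectin and an adipocyte marker, read between 21950 and 34975 on all arrays. Of 11 tested adipocyte markers 0 were higher in CNOT3KO, 3 were lower and 8 did not pass.

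S100 proteins are small calcium sensors with a pair of EF-hand loops. They mostly act as dimers, changing shape when calcium binds so that they can hold target proteins, and some are also secreted and signal to other cells. Annexins bind phospholipid membranes when calcium rises, through a core of repeated domains behind a variable N-terminal tail. The families meet directly, since several S100 dimers grip the N-terminal tail of an annexin: S100A10 with annexin A2 is the best known such complex. Both families are abundant in adipocytes, macrophages, fibroblasts and vessel cells, which a whole fat pad all contains, and in bulk tissue more cells of a type and more mRNA per cell cannot be told apart.

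Most S100 genes of the mouse lie side by side. In RefSeq's gene table for the assembly GRCm38.p6, 12 of the 14 S100 members are on chromosome 3, and 12 S100 genes form a run with no other protein-coding gene inside it. The order of the run is S100a1, S100a13, S100a14, S100a16, S100a3, S100a2, S100a4, S100a5, S100a6, S100a7a, S100a8 and S100a9. Shown are the 250 bases before and 50 after the start site of S100a4, S100a5 and S100a6. These 3 were chosen as direct neighbours on the plus strand. The outer ones were higher in CNOT3KO, and S100a5 was too dim to be tested. The sequences are RefSeq's for GRCm38.p6, at chr3:90603520-90603819, chr3:90608272-90608571 and chr3:90612644-90612943, and capitals mark the motifs that were found.
S100a4 promoter: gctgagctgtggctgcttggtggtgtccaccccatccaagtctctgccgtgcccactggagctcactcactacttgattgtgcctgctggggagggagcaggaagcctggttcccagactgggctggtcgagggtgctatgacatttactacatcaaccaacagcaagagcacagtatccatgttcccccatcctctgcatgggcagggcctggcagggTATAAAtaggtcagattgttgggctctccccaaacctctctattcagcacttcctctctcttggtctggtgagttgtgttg
S100a5 promoter: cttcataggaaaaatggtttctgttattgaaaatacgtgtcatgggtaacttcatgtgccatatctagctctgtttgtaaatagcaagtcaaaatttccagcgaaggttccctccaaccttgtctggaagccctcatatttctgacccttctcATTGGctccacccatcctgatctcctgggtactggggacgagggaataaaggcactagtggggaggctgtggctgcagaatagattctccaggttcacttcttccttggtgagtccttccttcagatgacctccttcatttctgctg
S100a6 promoter: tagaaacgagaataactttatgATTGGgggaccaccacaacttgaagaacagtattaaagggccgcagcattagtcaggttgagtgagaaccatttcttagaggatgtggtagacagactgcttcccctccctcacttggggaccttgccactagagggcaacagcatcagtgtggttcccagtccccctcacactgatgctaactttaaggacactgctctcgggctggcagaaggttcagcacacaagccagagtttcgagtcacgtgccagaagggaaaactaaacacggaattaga
The windows were searched on both strands for TATAAA (the TATA box), TGANTCA (the AP-1 site), GGGCGG (the GC box) and CCAAT (the CCAAT box), and no 2 matches overlapped here. The S100a4 window held 1 match, a TATAAA whose first base lies at -31 from the start site, and 13.6% of 32851 windows of this length hold that motif on either strand. The S100a5 and S100a6 windows each held 1 CCAAT on the reverse strand, at -97 and -228, against 37.4% of windows. A match is a description of the letters and was not tied to the signals.

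A further pair shares its start region. S100a1 on the minus strand and S100a13 on the plus strand start 105 bases apart and run away from each other, so that their windows overlap over 204 bases (chr3:90514281-90514484, plus strand, GRCm38.p6). None of the 4 motifs was found in the overlap, so it has no capitals. It is shown because both genes could be read from it and neither passed the test.
S100a1 and S100a13 shared window: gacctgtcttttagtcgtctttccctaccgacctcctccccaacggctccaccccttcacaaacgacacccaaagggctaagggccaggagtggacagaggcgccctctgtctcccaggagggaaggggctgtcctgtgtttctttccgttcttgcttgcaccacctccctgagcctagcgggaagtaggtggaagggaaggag

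Over the 18 tested members, 5 were higher in CNOT3KO, 0 were lower and 13 did not pass. The higher ones were S100a4, S100a6, Anxa1, Anxa4 and Anxa7. The test was limma on log2(signal + 22.5), with Benjamini-Hochberg adjustment over all 12769 tested genes and a threshold of 0.05. By the same test 40.1% of all tested genes were called (23.2% higher and 16.9% lower). The members' shares were 27.8% higher and 0% lower, so a smaller share of members than of all genes was called, and the higher share lay near the background. At an unadjusted limma p under 0.05 there was 1 lower member, Anxa9, against 21.1% of all tested genes. At that level 6 members were higher, the 5 above and Anxa6, and the matching share of all genes was not computed. At an adjusted p under 0.01 there were 3 members, S100a4, Anxa4 and Anxa7, against 24.6% of all tested genes. The members' median log2 difference was 0.01 (-0.67 to 1.74), beside 0.02 over all tested genes. In 6 of the 18 members the groups did not overlap, each time with CNOT3KO above WT, against 51.7% of all tested genes in either direction. The share of all tested genes with CNOT3KO above WT alone is not given here.

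**Figure D1:**
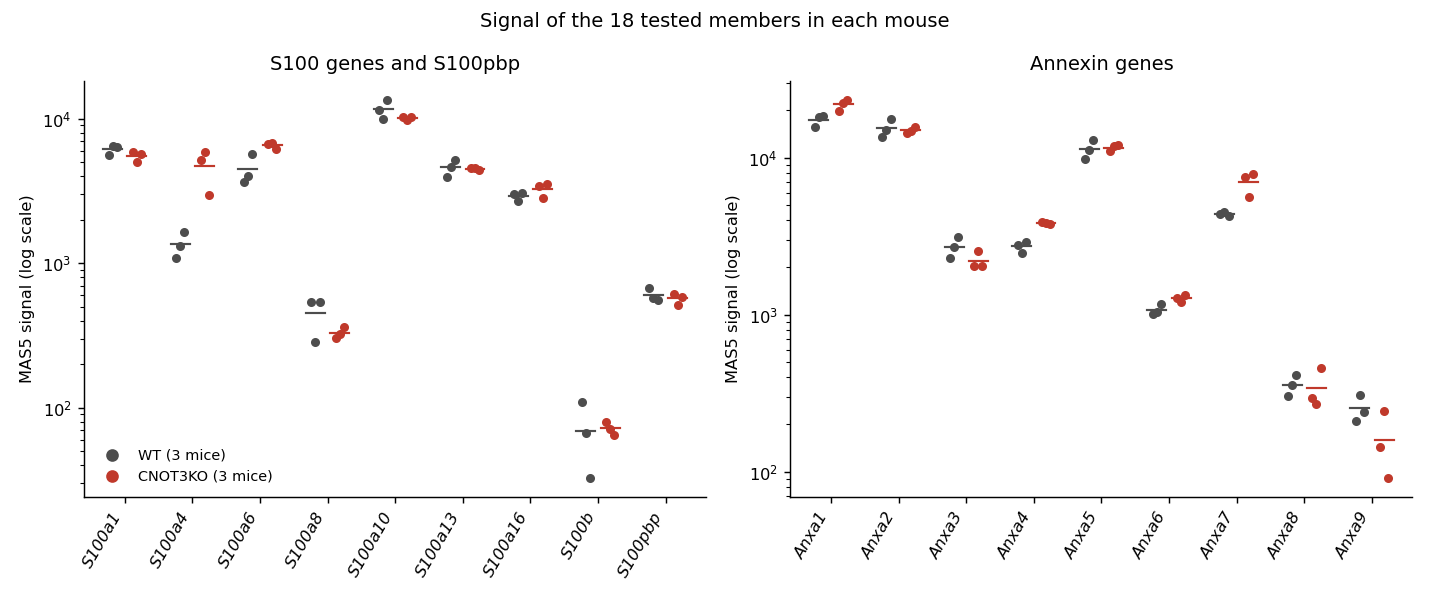
MAS5 signal on a log axis of each tested member in each mouse, WT in grey and CNOT3KO in red, with a line at each group's mean; S100 genes and S100pbp on the left, annexins on the right. S100a4 shows the widest gap between groups, 1090 to 1636 in WT against 2978 to 5876 in CNOT3KO, while most other members overlap.

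S100a4, also known as metastasin or FSP1, binds non-muscle myosin and is used as a marker of fibroblasts and of some macrophages. It read 1090, 1321 and 1636 in WT and 5184, 5876 and 2978 in CNOT3KO. All CNOT3KO mice lay above all WT mice, and CNOT3KO mouse 3 was the lowest of its group. The means were 1349 ± 274 and 4679 ± 1514 (SD, n = 3 each), a 3.34-fold rise (log2 1.74, SE 0.24, limma adjusted p = 0.000471). The call held under all 18 alternatives, with log2 differences from 1.55 to 2.03.

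Macrophage markers and some fibroblast markers also differed between the groups. Of 13 tested macrophage markers 11 were higher and 1, Mertk, was lower, and their summed signal was 26167 to 31640 in WT against 63136, 69860 and 48440 in CNOT3KO. CNOT3KO mouse 3 was the lowest of its group for the macrophage sum as for S100a4, and so it was for 9 of the 13 marker lists, fibroblast and progenitor markers among them. Of 10 tested fibroblast and progenitor markers 4 rose and 2 fell: Lum, a matrix proteoglycan, rose from 3119 ± 624 to 9049 ± 426, while Dpt, dermatopontin, fell from 11362 ± 966 to 7716 ± 2065 (SD, n = 3 each; limma adjusted p = 4.81e-05 and 0.0244). The fibroblast sums overlapped between groups, at 54261 to 65749 in WT and 64390, 75114 and 62991 in CNOT3KO. Their part in the S100a4 result was not tested.

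S100a6, or calcyclin, binds a ubiquitin ligase adaptor and several annexins. It read 3671, 4039 and 5684 in WT and 6661, 6788 and 6131 in CNOT3KO. The groups did not overlap, although WT mouse 3 came close to the knockout mice. S100a6 rose 1.48-fold (log2 0.57, SE 0.15, limma adjusted p = 0.0153). The call was lost without WT mouse 2 (log2 0.51, adjusted p = 0.0646) or without CNOT3KO mouse 1 (log2 0.55, adjusted p = 0.0533). Of the genes whose products bind calcyclin, Cacybp read 2140 ± 396 and 2668 ± 98 (SD, n = 3 each), a difference that did not pass, and Sugt1, a chaperone adaptor, rose by 0.54 on the log2 scale (limma adjusted p = 0.00411).

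S100a5, which lies between them, read 21.0 to 50.1 over all 6 arrays and was too dim to be tested, and so was S100a3, upstream of S100a4 with S100a2 between them, at 3.12 to 37.9. The rest of the run gave no call. S100a1, a regulator of calcium release in muscle, read 5583, 6504 and 6313 in WT and 5886, 4976 and 5647 in CNOT3KO. S100a13, which takes part in the export of growth factors that lack a signal peptide, read 3963, 4659 and 5146 and then 4530, 4546 and 4424. Both sets of values overlapped between the groups. The 95% limma interval of the log2 difference was -0.40 to 0.09 for S100a1 and -0.27 to 0.23 for S100a13, so a 2-fold change lay outside both.

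S100a16, a widely expressed member of the same run, read 3012, 2696 and 3043 in WT and 3419, 2828 and 3509 in CNOT3KO, with overlapping groups (log2 0.15, interval -0.11 to 0.41). Its other probe set read 2076 to 2479 and 2436 to 2557. S100a14 (3.71 to 17.5) was below the filter. Of the 5 nearest tested genes on each side of the run, 2 were higher (Ints3 and Sprr1a), 2 were lower (Lce1h and Lce1i) and 6 did not pass. With 40.1% of all tested genes called, the share among these neighbours was near the background.

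**Figure D2:**
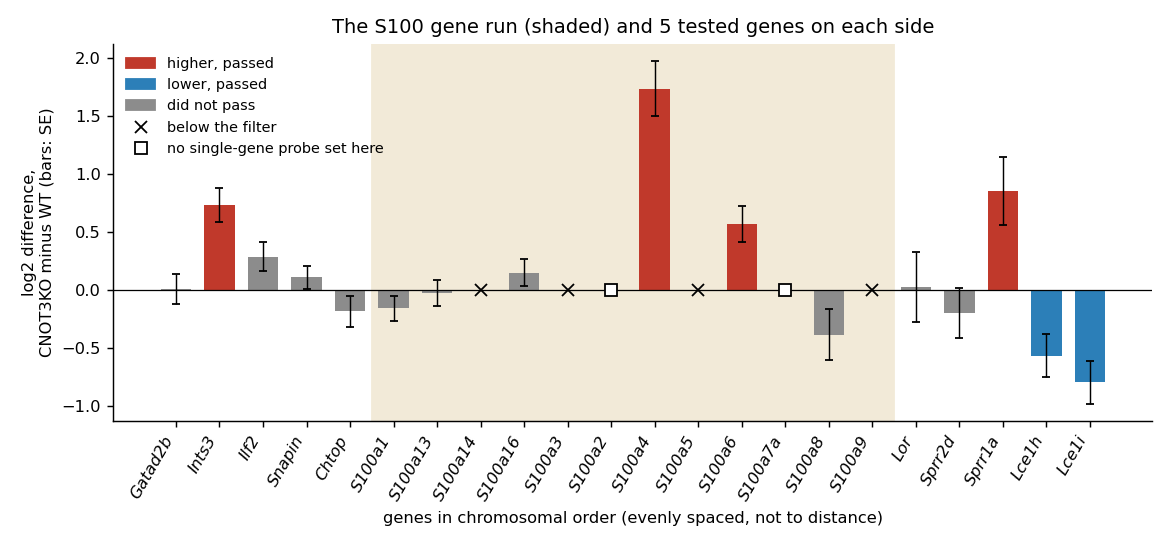
Log2 difference (CNOT3KO minus WT, bars are SE) of the genes in chromosomal order, with the S100 run shaded and 5 tested genes on each side; spacing is by order, not distance; red passed as higher, blue as lower, grey did not pass, crosses were below the filter and squares had no single-gene probe set. S100a4 (1.74) and S100a6 (0.57) are the only called genes of the run, with S100a5 between them below the filter.

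S100a8 and S100a9 form calprotectin, the main calcium-binding protein of neutrophils and a ligand of TLR4 and of the receptor for advanced glycation end products. S100a8 read 540.2, 287 and 538 in WT and 306, 326 and 362 in CNOT3KO. WT mouse 2 was lower than the knockout mice and the other WT mice higher, so the groups overlapped. The log2 difference was -0.38 (SE 0.22, limma adjusted p = 0.201). Without WT mouse 2 it was -0.67 and passed (adjusted p = 0.0101), so this mouse decided the call. S100a9 read 5.26 to 51.5 over the 6 arrays and was below the filter.

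Of 13 neutrophil markers with a probe set, 6 were tested: 1, Chil3, was higher, 1, Mmp9, was lower and 4 did not pass. Elane, Ltf, Camp, Ngp, Cxcr2 and Mmp8 all had mean signals below 51.6, the level of the filter. Prtn3, a neutrophil protease, was the brightest marker, at 448, 1173 and 1397 in WT and 515, 571 and 781 in CNOT3KO, with overlap (limma adjusted p = 0.251). The summed signal was 1137, 1808 and 1875 in WT and 1178, 1160 and 1378 in CNOT3KO, and Prtn3 made up most of it in WT mice 2 and 3. Chil3 is also made by macrophages.

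S100b, known from glia and also made by adipocytes, read 109, 66.6 and 32.8 in WT and 80.4, 71.5 and 64.9 in CNOT3KO. Its groups overlapped, and its interval of -0.56 to 0.81 on the log2 scale was wide. A second S100b probe set read 68.7, 103 and 80.3 and then 52.2, 47.3 and 49.9, without overlap, and did not pass (log2 -0.55, limma adjusted p = 0.0643), so the S100b probe sets differed in sign. Of 4 tested markers of Schwann cells and nerve, 1, Sox10, was higher in CNOT3KO and 3 did not pass. S100g (1.26 to 10.3), the vitamin D-dependent calbindin of gut and kidney, and S100a7l2 (1.41 to 4.97) were below the filter. S100pbp read 602 ± 64.2 and 573 ± 50.7 (SD, n = 3 each) and did not pass.

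S100a10 and Anxa2 make the heterotetramer that binds plasminogen activator at the cell surface and ties membranes to the giant scaffold AHNAK. S100a10 has lost calcium binding and stays in its active shape. It read 11412, 10010 and 13454 in WT and 10311, 9735 and 10221 in CNOT3KO. Anxa2 read 13489, 15089 and 17656 in WT and 14284, 14825 and 15705 in CNOT3KO. Both overlapped between groups, and the intervals of the log2 difference were -0.46 to 0.07 for S100a10 and -0.30 to 0.23 for Anxa2. A second, dimmer Anxa2 probe set read 194 to 265 in WT and 229 to 323 in CNOT3KO. Its log2 difference of 0.29 had the opposite sign to the representative one and did not pass. A second S100a10 probe set gave log2 -0.17 and did not pass. The third, with signals of 317 to 372 in WT and 174 to 267 in CNOT3KO, was called lower (log2 -0.53, limma adjusted p = 0.0356 with each probe set tested singly).

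The partners of this complex went different ways. Ahnak read 13044, 15512 and 19572 in WT and 10106, 11191 and 8457 in CNOT3KO, without overlap, and fell to 0.623 of WT (log2 -0.68, limma adjusted p = 0.00789). Averaged over its probe sets Ahnak read log2 -0.09 and was no longer called. Plau, the urokinase-type plasminogen activator, rose 1.97-fold (254, 409.7 and 469 against 672, 1123 and 543; limma adjusted p = 0.0185). Its call was lost without WT mouse 1 (log2 0.73) or CNOT3KO mouse 2 (log2 0.69). Plat, the tissue-type activator, and Plaur, the urokinase receptor, did not pass, with log2 differences of -0.12 and 0.25. Plg was below the filter.

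Anxa1, the annexin that glucocorticoids induce and that signals through formyl peptide receptors to end inflammation, read 15697, 18096 and 18327 in WT and 19833, 22449 and 23332 in CNOT3KO. The groups did not overlap. The rise was 1.26-fold (log2 0.33, SE 0.11, limma adjusted p = 0.0371), the smallest of the 5. It lost its call without WT mouse 1 (0.26) or 2 (0.36) and without CNOT3KO mouse 2 (0.31) or 3 (0.28), as well as under 5 other alternatives, among them centring on the median (0.23). Its receptor Fpr2 read 52.5 ± 22.9 and 66.9 ± 26.3 (SD, n = 3 each) and did not pass, and Fpr1 is not analysed here. Pla2g4a, the cytosolic phospholipase A2 that annexins can inhibit, rose 3.61-fold, from 305, 288 and 413 to 1253, 1020 and 1546 (limma adjusted p = 7.69e-05).

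Anxa4, a membrane-binding annexin of epithelia and secretory cells, read 2777, 2482 and 2906 in WT and 3893, 3816 and 3761 in CNOT3KO. The knockout mice lay close together and above all WT mice. The rise was 1.40-fold (log2 0.49, SE 0.10, limma adjusted p = 0.00379) and was called under all 18 alternatives. A second probe set rose more, from 753, 819 and 893 to 1824, 1605 and 1945 (log2 1.10, limma adjusted p = 0.000162 with each probe set tested singly). The third gave log2 0.45 and did not pass (adjusted p = 0.0756). In all 3 the CNOT3KO mice lay above the WT mice. In the third this was only just so, with the lowest CNOT3KO mouse at 566.1 and the highest WT mouse at 565.2.

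Anxa7, or synexin, which aids the fusion of secretory vesicles, read 4362, 4521 and 4251 in WT and 7568, 5585 and 7844 in CNOT3KO. The groups did not overlap, and CNOT3KO mouse 2 was the lowest knockout mouse. The rise was 1.58-fold (log2 0.66, SE 0.13, limma adjusted p = 0.00391). The other Anxa7 probe sets did not share it: one gave log2 0.14 and another -0.53, neither passing, and with the mean of all 3 the log2 difference was 0.09 and no longer called. Sri, or sorcin, the EF-hand protein that binds synexin, rose by 0.37 on the log2 scale (limma adjusted p = 0.0233).

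Anxa6, the longest annexin with a doubled core, gave opposite readings by probe set. Its representative read 1008, 1042 and 1170 in WT and 1274, 1211 and 1328 in CNOT3KO, without overlap but not past the test (log2 0.24, limma adjusted p = 0.100). One other probe set fell from 481, 494 and 585 to 266, 194 and 207 (log2 -1.15, limma adjusted p = 0.000475 when tested singly). Another fell from 316, 477 and 603 to 226, 215 and 206 (log2 -0.99, adjusted p = 0.00497), and the fourth overlapped (log2 -0.24). With the mean of all 4 the log2 difference was -0.54 and was called (adjusted p = 0.0140), so no direction is given for Anxa6 as a gene.

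The ratio of each other tested probe set to the representative one was compared within arrays for all 14 such pairs of the members. In 7 pairs the groups did not overlap, the ratio being lower in CNOT3KO in 5 (3 of Anxa6 and 2 of Anxa7) and higher in 2 (Anxa2 and Anxa4). Pairs of the same gene share their representative probe set and so are not independent. The matching share over pairs of all genes was not computed. The log2 ratio of the first fallen Anxa6 probe set to the representative one was -1.02 ± 0.04 in WT and -2.41 ± 0.21 in CNOT3KO (SD, n = 3 each), a difference of -1.39. For the lowest Anxa7 probe set it was -3.34 ± 0.37 and -4.54 ± 0.43, a difference of -1.19. With 3 against 3 mice an exact two-sided permutation test cannot go below p = 0.1 (0.2 here after Benjamini-Hochberg adjustment over the 14). Any pair without overlap reaches that value, so for these 7 pairs the test only restates that the groups did not overlap. The positions of the probe sets in their transcripts are not analysed here.

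**Figure D3:**
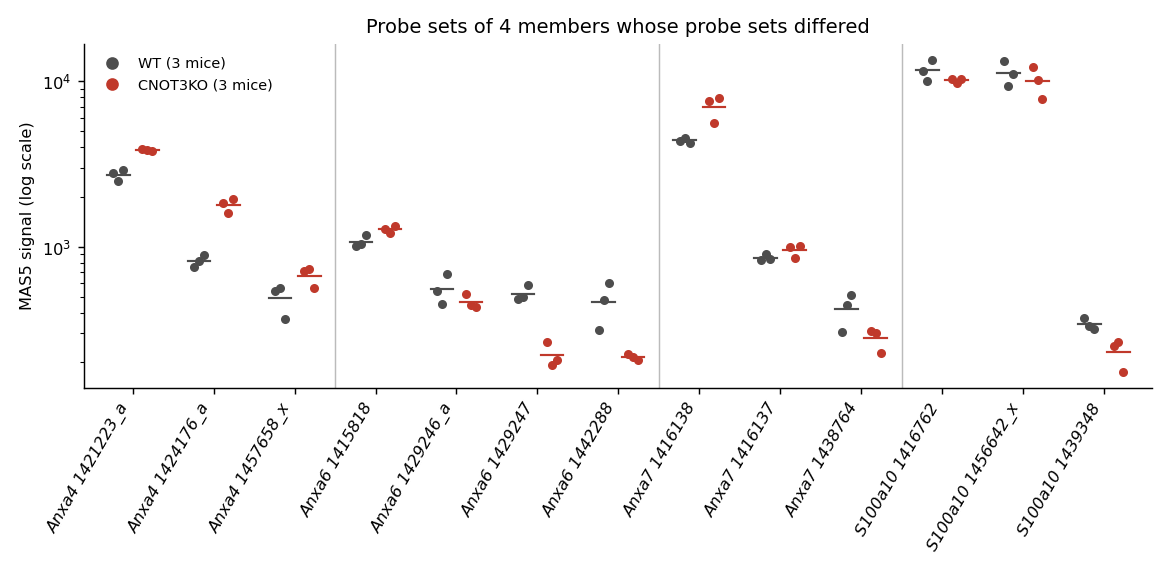
MAS5 signal on a log axis in each mouse for every tested probe set of Anxa4, Anxa6, Anxa7 and S100a10, labelled by probe set number, WT in grey and CNOT3KO in red, with a line at each group's mean. The Anxa4 probe sets all sit higher in CNOT3KO, whereas those of Anxa6 and Anxa7 point both ways.

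The remaining annexins did not pass. Anxa5, the phosphatidylserine binder used to stain dying cells, read 9878, 11268 and 12898 in WT and 10956, 11795 and 11986 in CNOT3KO. These groups overlapped (interval of the log2 difference -0.22 to 0.30). Anxa3 read 2288, 2684 and 3125 in WT and 2045, 2546 and 2051 in CNOT3KO, also with overlap (log2 -0.28, interval -0.59 to 0.03). Anxa8 read 357 ± 55.0 and 341 ± 101 (SD, n = 3 each), and its second probe set overlapped as well.

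Anxa9, an annexin whose calcium sites are altered, had the lowest log2 difference of the members. It read 210.0, 309.8 and 239.6 in WT and 144, 243 and 91.2 in CNOT3KO. CNOT3KO mouse 2 lay inside the WT range. The difference was -0.67 (SE 0.28, limma adjusted p = 0.0878), and without CNOT3KO mouse 2 it was -0.98 and passed (adjusted p = 0.0112). Anxa10 (1.70 to 22.4) and Anxa13 (16.4 to 33.8) were below the filter.

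**Figure D4:**
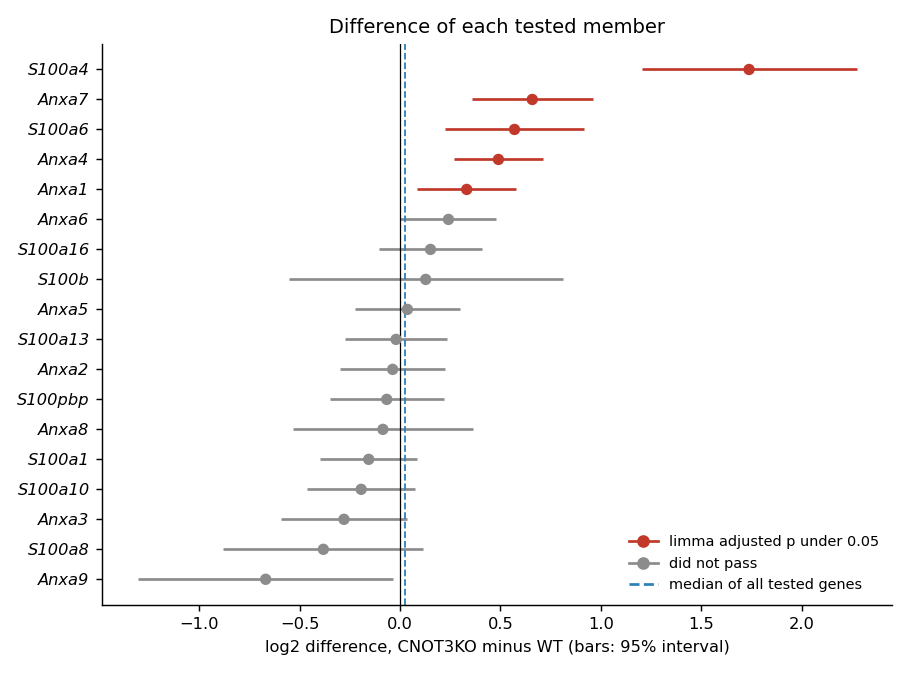
Log2 difference (CNOT3KO minus WT) of the 18 tested members with 95% limma intervals, red where the adjusted p was under 0.05; the dashed line is the median of all tested genes (0.02). Of the 18, 5 are red and lie to the right of 0, led by S100a4 at 1.74.

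Receptors of extracellular S100 proteins showed no call among those tested. Tlr4 read 403, 527 and 501 in WT and 590.2, 546 and 404 in CNOT3KO, with overlap. Bsg, or basigin, a receptor of S100A9, read 2630 ± 211 and 2921 ± 277 (SD, n = 3 each) and did not pass. Ager, the receptor for advanced glycation end products, read 6.38 to 62.4 and was below the filter.

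Of 26 tested genes on the list of S100 and annexin partners, receptors and substrates, 10 were higher, 1 (Ahnak) was lower and 15 did not pass, with a median log2 difference of 0.26 beside 0.02 over all genes. Cd68, a lysosomal protein that is also one of the macrophage markers, rose 7.61-fold, from 659 ± 169 to 5100 ± 864 (SD, n = 3 each; limma adjusted p = 1.43e-05). Genes of membrane repair and calcium-dependent membrane binding went both ways, with 4 of 18 higher (Myof, Esyt2, Pdcd6ip and Capn1) and 4 lower (Syt7, Cpne3, Cpne1 and Esyt1). Myof, or myoferlin, a membrane repair protein, rose 2.44-fold, from 238, 270.2 and 336 to 752, 905 and 532 (limma adjusted p = 0.000882), and averaged over its probe sets the log2 difference was 0.85 in place of 1.29. Syt7, a calcium sensor of lysosome exocytosis, fell from 236, 229.6 and 231 to 35.8, 163 and 40.7 (log2 -1.53, limma adjusted p = 0.0106), with CNOT3KO mouse 2 nearest to WT. Its log2 difference was -1.01 with a larger offset, the median value and -0.90 when its probe sets were averaged.

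Other EF-hand calcium sensors also went both ways, with 4 of 15 higher (Efhd2, Nucb2, Rcn3 and Calu) and 2 lower (Sdf4 and Efcab14), a median of 0.19. Efhd2, or swiprosin, an actin-binding sensor of immune cells, rose 2.01-fold, from 2467, 2775 and 2821 to 5724, 5753 and 4793 (limma adjusted p = 0.000149). On the partners list 38.5% were higher and 3.85% lower, beside 23.2% and 16.9% of all tested genes. The shares were 22.2% and 22.2% on the membrane list and 26.7% and 13.3% among the EF-hand sensors.

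**Figure D5:**
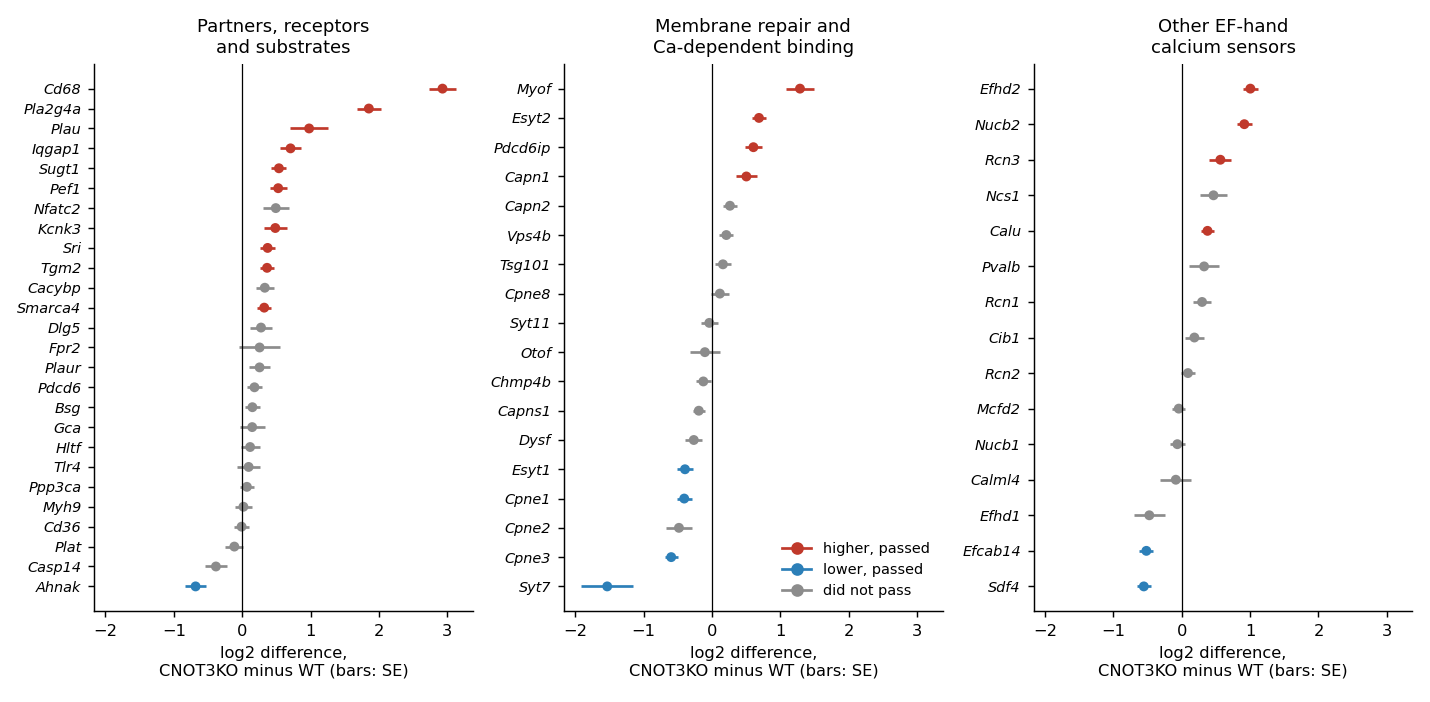
Log2 difference (CNOT3KO minus WT, bars are SE) of the tested genes on the 3 lists: partners, receptors and substrates on the left, membrane repair and calcium-dependent binding in the middle, other EF-hand sensors on the right; red passed as higher, blue as lower and grey did not pass. Cd68 (2.93) and Pla2g4a (1.85) lie farthest to the right and Syt7 (-1.53) farthest to the left.

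Markers of other cells gave the setting for these values. All 12 endothelial markers were lower, with summed signals of 21020 to 21293 in WT and 7321 to 8446 in CNOT3KO. Mesothelial and epithelial markers gave 5 lower and 0 higher calls by limma among 11 tested, and their sums were 6514 to 8042 and 3998 to 5762. Monocyte markers were higher in 3 of 5 cases. Their summed signal overlapped between groups, at 4646, 4655 and 5730 in WT and 7434, 7998 and 4995 in CNOT3KO. Smooth muscle and pericyte markers were higher in 1 and lower in 4 of 7 cases, and those of T, NK and B cells higher in 2 and lower in 1 of 6. Of 4 tested dendritic cell markers 1 was lower and 3 did not pass, and of 2 tested markers of carried-over muscle, testis or epididymis neither passed. Mast cell markers were higher in 3 of 4 tested cases and lower in 1, Kit. Of 11 tested adipocyte markers 3 (Lep, Plin4 and Cidec) were lower and 8 did not pass, with overlapping sums of 167498 to 212526 and 147400 to 178237. The part of these cells in the values of the S100 and annexin genes was not tested.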

How the data were processed

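The values were deposited by the authors as intensity values on a linear scale, made with MAS5, per the submitters' processing notes, from 500 ng of total RNA per mouse, per the labels' protocols. For MAS5's version, settings and scaling target nothing was stated in the labels. The arrays' trimmed mean signals differed by at most 0.0701%, so they had been scaled before deposit, and medians lay between 82.1 and 92.9. Of 45037 probe sets, 34945 carried 1 gene name, 932 several and 9160 none here. The 26 members had 44 probe sets.

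Each gene was tested through its brightest probe set that names it alone, where the mean reached the 40th percentile of all probe sets (51.6), which left 12769 genes. limma (version 3.58.1, R 4.3.3; lmFit and eBayes with trend, two-sided) was run on log2(signal + 22.5), an offset taken from the 25th percentile of the deposited values. Fold changes are on that scale and understate changes of dim genes. The median SE of a log2 difference was 0.15. Signals of different probe sets are not comparable as levels, and precision is limited by having 6 arrays. The test was tried on simulated data.

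The members, the gene lists and the tests were chosen with earlier results of these data known. Members past the threshold and the 6 with the highest signal among the rest are given by mouse, list genes with a change of at least 2-fold are named, and further list genes, marker genes and members were named after their values were seen. Promoter windows came from RefSeq (GRCm38.p6), where 21 of the 26 members matched. Python 3.11.15, pandas 2.3.3 and matplotlib 3.10.9 were used for sequences and plots. Alternatives covered the offset, filter, normalization, centring, probe set, variance model, array weights, mouse number as a block and each mouse left out.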

Additional observations from a re-analysis of the deposited data

How the results depend on the processing

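Of 323 values of tested members under the alternatives, 288 kept their direction and their side of the threshold, 12 lost a call, 7 gained one and 16, of 7 members, had the opposite sign. Of these 16 only Anxa6 with the mean of all probe sets passed the test (log2 -0.54). The others did not pass: with the mean of all probe sets Anxa2 was 0.13, S100b -0.21 and S100pbp 0.18; with quantile normalization Anxa2 was 0.00022; with centring Anxa5 was -0.061; with array weights Anxa5 was -0.022 and S100pbp 0.024. With 1 mouse left out the log2 difference spanned 0 for Anxa2 (-0.13 to 0.065), Anxa5 (-0.059 to 0.13), Anxa8 (-0.30 to 0.055), S100a13 (-0.12 to 0.066), S100b (-0.20 to 0.43) and S100pbp (-0.12 to 0.016), and, outside the members, for Tlr4 (-0.018 to 0.25) and Plat (-0.21 to 0.00052). Tlr4 was -0.0036 with centring. The 5 higher members became 3 with the mean of all probe sets, where Anxa1 and Anxa7 lost their call, and 3 at an adjusted p under 0.01, and 3 to 5 with 1 mouse left out, the lowest without WT mouse 2. The mean of all probe sets takes in those below the filter. Among these were the second probe set of Anxa1 (6.34 to 63.9 over all arrays) and the third of Anxa2 (2.19 to 27.4). The second of S100pbp (13.2 to 44.1) was below it as well. With array weights the number higher stayed at 5, but Anxa6 passed as higher (log2 0.25, limma adjusted p = 0.0313) and Anxa1 lost its call. The 0 lower members became 1 with centring on the median (Anxa9), 1 with the mean of all probe sets (Anxa6), 2 with array weights (Anxa3 and Anxa9) and 0 to 1 with 1 mouse left out. With the mouse number as a replicate block there were 5 higher and 1 lower, Anxa9 (log2 -0.67, limma adjusted p = 0.0365). The numbers are not known to pair mice: same-numbered mice had correlations of their deviations from the group means of 0.07, 0.11 and 0.04. S100b, Syt7 and Fpr2 were not tested at the filter of the 60th percentile, nor Myof when cross-hybridising probe sets were avoided. The counts over all genes stayed within 1.5 times under every alternative run. The cause of these changes was not tested. Dim members limit what the arrays can show: 8 of 26 lay below the filter and have no test.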
